A study of Rattus norvegicus with 10 samples.

Results

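The genes described here encode voltage-gated sodium and calcium channels, measured in left hippocampal tissue from male TgF344-AD rats. All rows of the deposited RSEM expected-count table whose symbol begins Scn with a number and a or b, Cacna, Cacnb with a number or Cacng with a number were taken, with 3 matching genes left out, which gave 37 of 17168 genes: 19 encode pore subunits and 18 auxiliary subunits. The table lists the Nav1.2 gene Scn2a under its older symbol Scn2a1. RNA was sequenced from 10 rats, each 1 library: 5 untreated rats on rodent chow and 5 rats whose chow held 750 mg of RG2833 per kg, a benzamide that inhibits HDAC1 and HDAC3. All 10 rats were transgenic males aged 11 months, and the drug was given from 5 months of age for 6 months. One sentence of the series' design text names ibudilast in its place; every treatment label names RG2833. TgF344-AD rats carry mutant human transgenes of familial Alzheimer disease under the mouse prion promoter, in both groups alike, so the comparison holds the transgenes constant and has no wild-type animals. Labels do not say whether animals shared a litter or a cage.

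Voltage-gated channels open when the membrane depolarises. Sodium channels have a single large pore protein (α, the Scn-a genes) and small adhesion-like β subunits (the Scn-b genes), and they start and carry the action potential from the axon initial segment. Calcium channels have a pore (α1) that a cytoplasmic β subunit and an extracellular α2δ subunit bring to the surface and modulate. P/Q-type and N-type pores trigger transmitter release, L-type pores link activity to transcription, and the low-voltage T-type pores support burst firing. The neuronal γ proteins carry a calcium-channel name, but most are TARPs, which traffic and gate AMPA receptors.

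Of the 37 genes, 30 had enough counts to be tested, 14 pore and 16 auxiliary. Together the 37 genes took from 0.262% of the counts (untreated replicate 3) to 0.395% (untreated replicate 1) of a library; library totals ran from 15118203 to 18533520 expected counts. Values below are CPM, counts scaled to the TMM-adjusted library size, with untreated and RG2833 libraries each given in the order of replicates 1 to 5. CPM is not divided by transcript length, so it compares a gene between libraries and not 1 gene with another.

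Several libraries stood apart in the markers of hippocampal cells. The summed CPM of the CA3 pyramidal markers (5 of 6 matched, 3 of them tested) was 130 in untreated replicate 3, 241 in RG2833 replicate 4 and 173 in RG2833 replicate 5, and from 403 to 504 in the other 7 libraries. In the same 3 libraries the sum of 8 general neuronal markers was 4244, 4679 and 4547 CPM, against 5624 to 6801 CPM in the others. Their microglial sum over 9 markers was 1089, 830.5 and 884 CPM, against 590 to 714 CPM. Each of the 8 neuronal markers except Tubb3 was lowest in those 3 libraries. Tubb3 was at 379, 311 and 300 CPM there, against 288 to 396 CPM elsewhere. Interneuron sums of 529, 451 and 414 CPM and CA1 sums of 740, 737 and 861 CPM did not set those libraries apart. The dentate granule markers Prox1 and C1ql2 were at 4.30 and 7.10 CPM in untreated replicate 3, where the other 9 libraries had from 21.5 to 50.5 and from 38.2 to 142 CPM. Stxbp6 was also lowest there, at 21.6 CPM (26.6 to 47.6 CPM elsewhere), while Lct, at 0.478 CPM, was not, and Tdo2 was at 0. The dentate sum (5 of 6 matched) was 33.5, 103 and 94.2 CPM in untreated replicate 3 and RG2833 replicates 4 and 5. In the others it was 122 to 240.2 CPM. Choroid plexus markers summed to 10627 CPM in untreated replicate 2 and 11551 CPM in RG2833 replicate 1, and to at most 454 CPM elsewhere. Marker sums are given next by group, untreated and then RG2833. They ran from 327 to 563 and 386 to 451 CPM for interneurons and 521 to 1249.99 and 737 to 1114 CPM for CA1 cells. For dentate granule cells they ran from 33.5 to 240.2 and 94.2 to 195 CPM. They ran from 7318 to 14275 and 8753 to 16109 CPM for oligodendrocytes, 162 to 295 and 179 to 257 CPM for their precursors, and 212 to 406 and 255 to 446 CPM for endothelium. Smooth muscle markers summed to 43.9 to 97.6 and 48.2 to 61.8 CPM, and striatal markers to 179.9 to 329.6 and 187 to 298 CPM. These ranges overlapped between the groups. Endothelial, precursor and astrocyte sums were each highest in untreated replicate 3 and RG2833 replicates 4 and 5: 406, 369 and 446 CPM for endothelium (at most 286 CPM elsewhere), 295, 252 and 257 CPM for precursors (at most 196 CPM) and 10529, 11378 and 11538 CPM for astrocytes (at most 10027 CPM). In whole tissue, fewer cells of a type and less RNA per cell cannot be told apart.

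**Figure D1:**
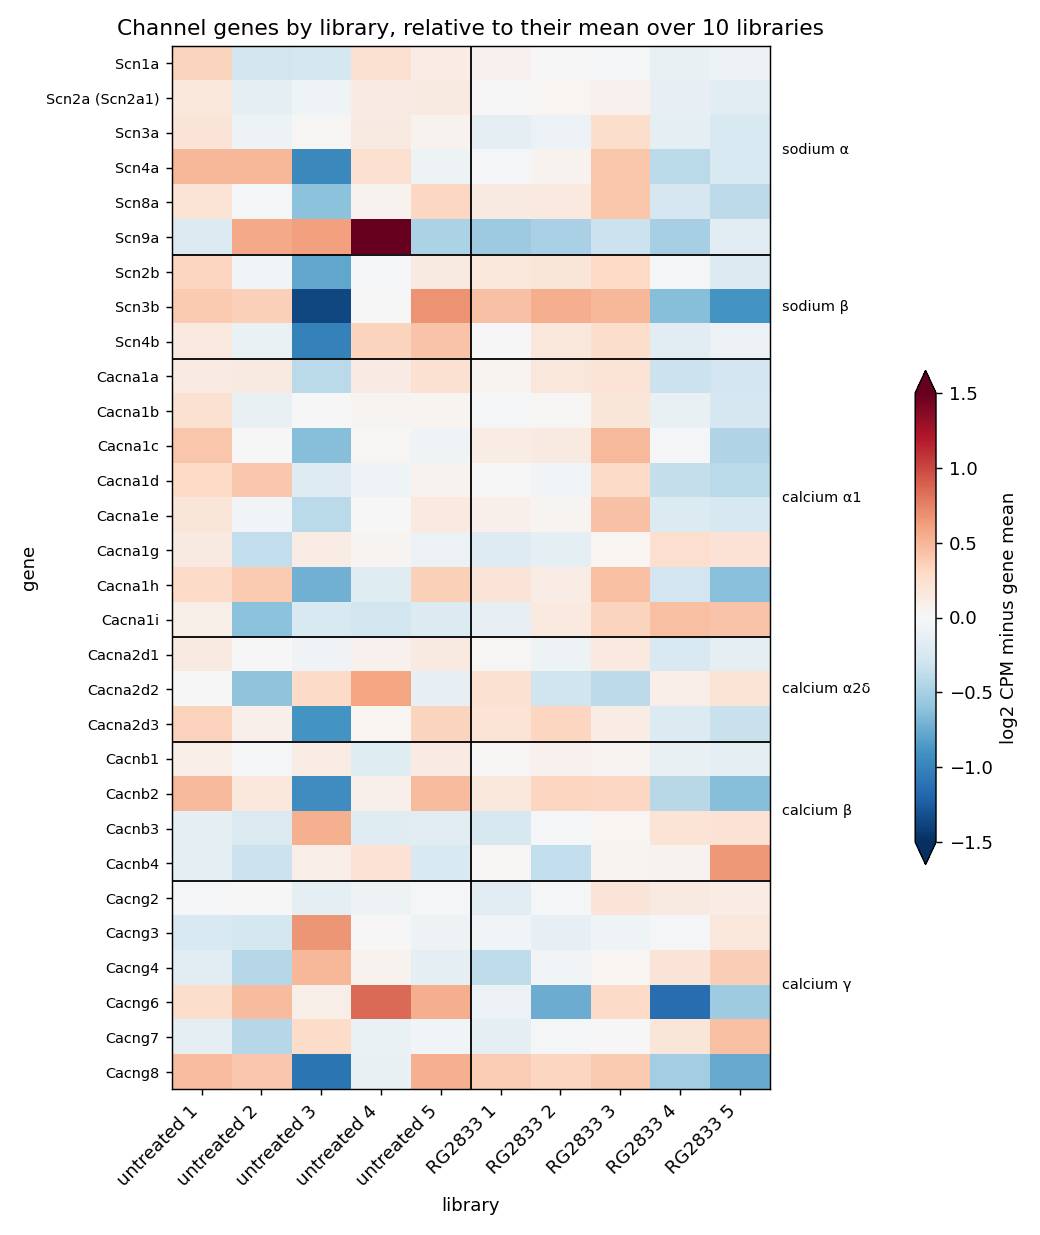
Log2 CPM of the 30 tested channel genes (rows, by subunit family) in the 10 libraries (columns), as the difference from each gene's mean over all 10 libraries; the colour scale ends at ±1.5. Untreated replicate 3 and RG2833 replicates 4 and 5 share a blue band over Scn3b, Cacng8 and Cacnb2.

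No channel gene passed the test of drug against no drug. With edgeR's quasi-likelihood test, 0 of the 30 tested members had an adjusted p under 0.05, as did 0 of all 12161 genes (0%); DESeq2 called 0 members and 7 of all genes. At an unadjusted p under 0.05 there were 3 members (10%), where all genes gave 5.66%: Cacna1i was higher in RG2833 rats, and Scn9a and Cacng6 were lower (2.71% of all genes were lower at that level). Cacng6 entered the test only through the untreated group, where it was higher, so the 10% is not read against the 5.66%. Below 0 on the log2 fold change scale lay 18 of the 30, against 53.5% of all genes, and the median log2 fold change was -0.06 over the members and -0.01 over all genes. The 2 groups overlapped in every one of the 30, while they did not overlap for 1.00% of all genes. Over the 7 libraries other than the 3 low in CA3 markers (an alternative added after the data were seen), the directions stayed and the unadjusted p-values were above 0.05: the log2 fold change was 0.36 for Cacna1i (unadjusted p = 0.0710), -1.08 for Scn9a (unadjusted p = 0.0638) and -0.80 for Cacng6 (unadjusted p = 0.0592). That fit has fewer animals.

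**Figure D2:**
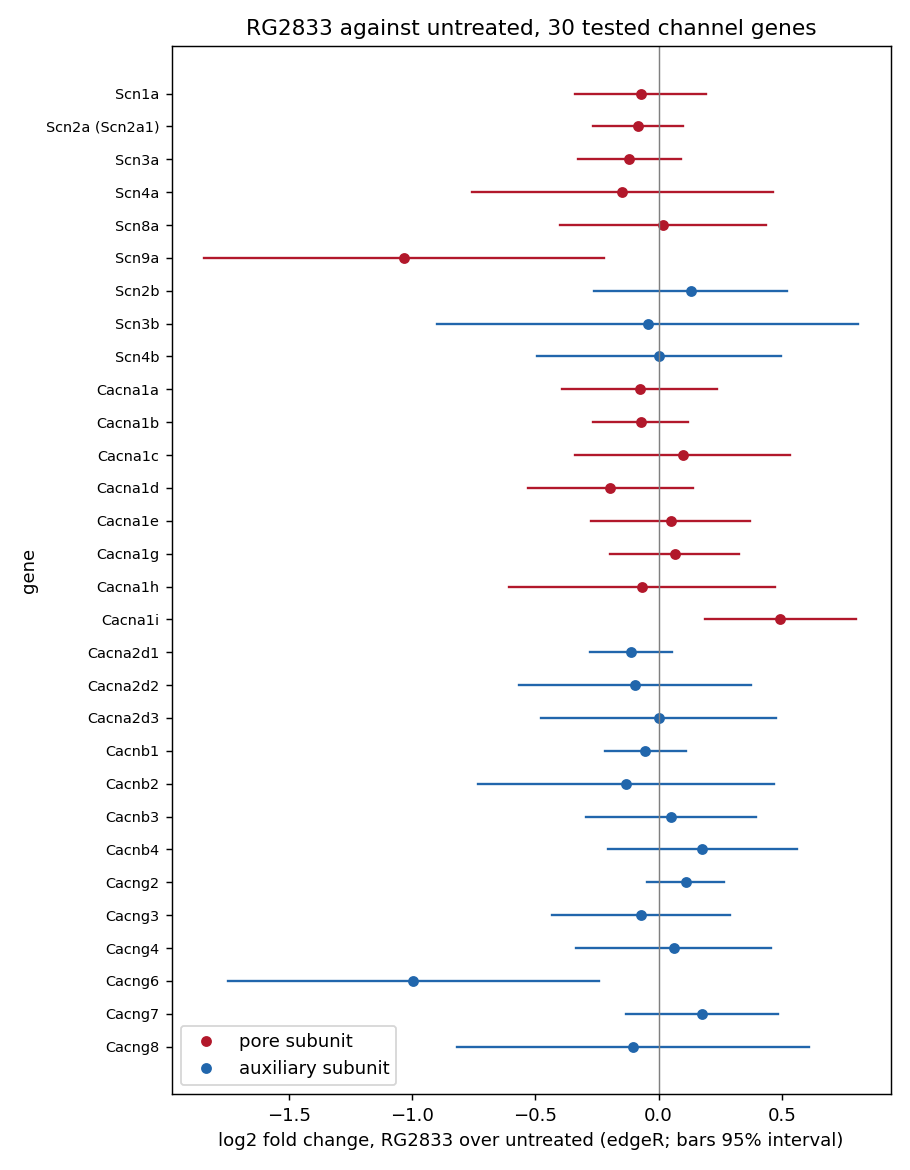
Log2 fold change of RG2833 over untreated for each tested channel gene (points; edgeR) with its 95% interval (bars), pore subunits in red and auxiliary subunits in blue. Cacna1i lies above 0 and Scn9a and Cacng6 below; the intervals of the other 27 genes include 0.

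For the other 27 tested members the log2 fold change ran from -0.20 for Cacna1d to 0.18 for Cacng7. The 95% interval lay within 1.5-fold in either direction for 22 of the 27, so for those genes a change beyond that size was outside the interval. The 5 genes with wider intervals were Scn3b, Cacng8, Cacnb2, Cacna1h and Scn4a. In counts simulated from these libraries, the same test recovered 33.5% of 200 genes changed 1.5-fold and 80.5% of 200 changed 2-fold among 12161 genes. Each of those sets held 200 changed genes, where the real libraries gave 0 genes with an adjusted p under 0.05. How often a change of that size would be recovered in the channel genes of the real libraries was not tested.

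Among the sodium channel pores, the 4 that carry most neuronal sodium current in the brain differed little between the groups. Scn2a (Scn2a1), the pore of unmyelinated axons and of the proximal initial segment of excitatory neurons, was at 422, 341, 362, 413 and 417 CPM without the drug and 381, 386, 398, 347 and 336 CPM with it. It was among the steadiest members, with a coefficient of variation of 8.56% over the 10 libraries, and its log2 fold change was -0.08 (SE 0.08). Scn1a, the pore on which fast-spiking interneurons depend, was at 95.2, 62.3, 62.6, 88.6 and 81.4 CPM without the drug and 78.9, 75.9, 74.8, 69.8 and 71.4 CPM with it (log2 fold change -0.07, SE 0.12). All 5 RG2833 values of Scn1a lay within the range of the untreated ones.

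Scn3a, a pore best known from the developing brain, was at 45.5, 37.6, 40.4, 43.8 and 41.2 CPM in untreated rats. Its RG2833 values were 36.1, 37.6, 47.8, 36.3 and 34.1 CPM, 4 of 5 below the untreated median and replicate 3 above all untreated libraries (log2 fold change -0.12, SE 0.09). Scn8a, the Nav1.6 pore of the distal initial segment and the nodes of Ranvier, was at 219, 186, 124, 197 and 236 CPM without the drug and 208, 210, 254, 159 and 144 CPM with it, with a log2 fold change of 0.02 (SE 0.19). Its 3 lowest values were those of the 3 libraries low in CA3 markers. Scn1a, Scn2a, Scn3a and Scn9a are neighbours on 1 chromosome and close in sequence, and all 10 expected counts of each were fractions (over 0.001 from a whole number). The same held for Scn3b, Scn4a and Scn8a and for the 3 T-type genes Cacna1g, Cacna1h and Cacna1i, and 8 of 10 were fractions for Cacna1a and Cacna1b. How reads that match more than 1 gene or isoform were shared out is not given in the sources used here, so the counts of these genes are uncertain to that extent.

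Scn9a was lower with the drug at an unadjusted p, with wide spread among the untreated libraries. Scn9a, the Nav1.7 pore best known from sensory and sympathetic neurons, was at 1.33, 2.36, 2.45, 4.65 and 1.09 CPM without the drug and 1.03, 1.08, 1.22, 1.06 and 1.38 CPM with it. The highest value was that of untreated replicate 4, where the sum of the thalamic markers (7 of 8 matched) was also highest, 153 CPM against 73.0 to 99.4 CPM in the other 9 libraries. Calb2, Prkcd, Tnnt1 and Slc17a6 were highest there, at 44.9, 30.5, 26.4 and 16.7 CPM, while Tcf7l2 (11.4 CPM), Lef1 (3.92 CPM) and Plekhg1 (19.04 CPM) were not; the part of thalamic tissue in the result was not tested. The log2 fold change was -1.03 (SE 0.37; edgeR unadjusted p = 0.0172, adjusted p = 0.841) and -0.64 without untreated replicate 4 (unadjusted p = 0.0430). With limma-voom it was -0.67 (unadjusted p = 0.121), and without the 2 choroid-rich libraries -1.01 (unadjusted p = 0.0543). Scn4a, the pore of skeletal muscle, was between 1.73 and 5.02 CPM in the 10 libraries (log2 fold change -0.15, SE 0.28).

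**Figure D3:**
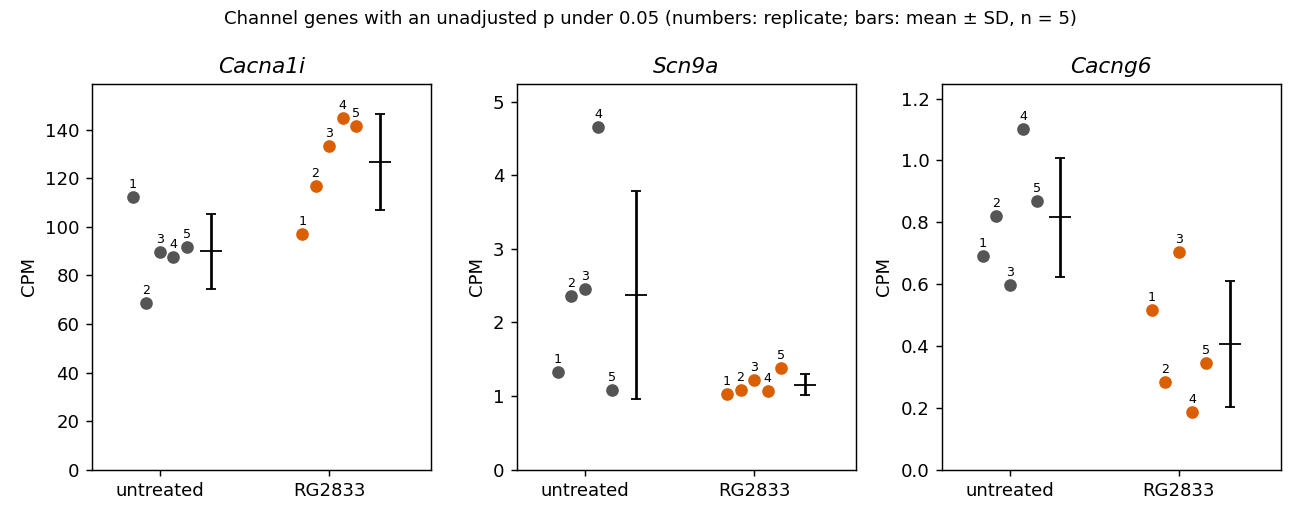
CPM per library (points, numbered by replicate) of the 3 tested channel genes with an unadjusted edgeR p under 0.05, with the mean ± SD of each group (n = 5). Scn9a reached 4.65 CPM in untreated replicate 4; Cacna1i values ran higher in RG2833 with overlap at untreated replicate 1.

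The sodium β subunits, immunoglobulin-fold proteins that set channel gating and surface density, varied far more between animals than between groups. Scn3b had the widest range of any member above 50 CPM: 651, 638, 193, 497 and 794 CPM without the drug and 675, 726, 703, 319 and 266 CPM with it, a 4.12-fold span. Its 3 low libraries were untreated replicate 3 and RG2833 replicates 4 and 5, and the group means of 555 ± 228 and 538 ± 225 CPM (SD, n = 5 each) were close (log2 fold change -0.04, SE 0.39). These were also the 3 libraries lowest in the CA3 and neuronal marker sums and highest in the microglial one; the part of cell makeup in this spread was not tested. Without those 3 libraries the log2 fold change of Scn3b was 0.12.

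**Figure D4:**
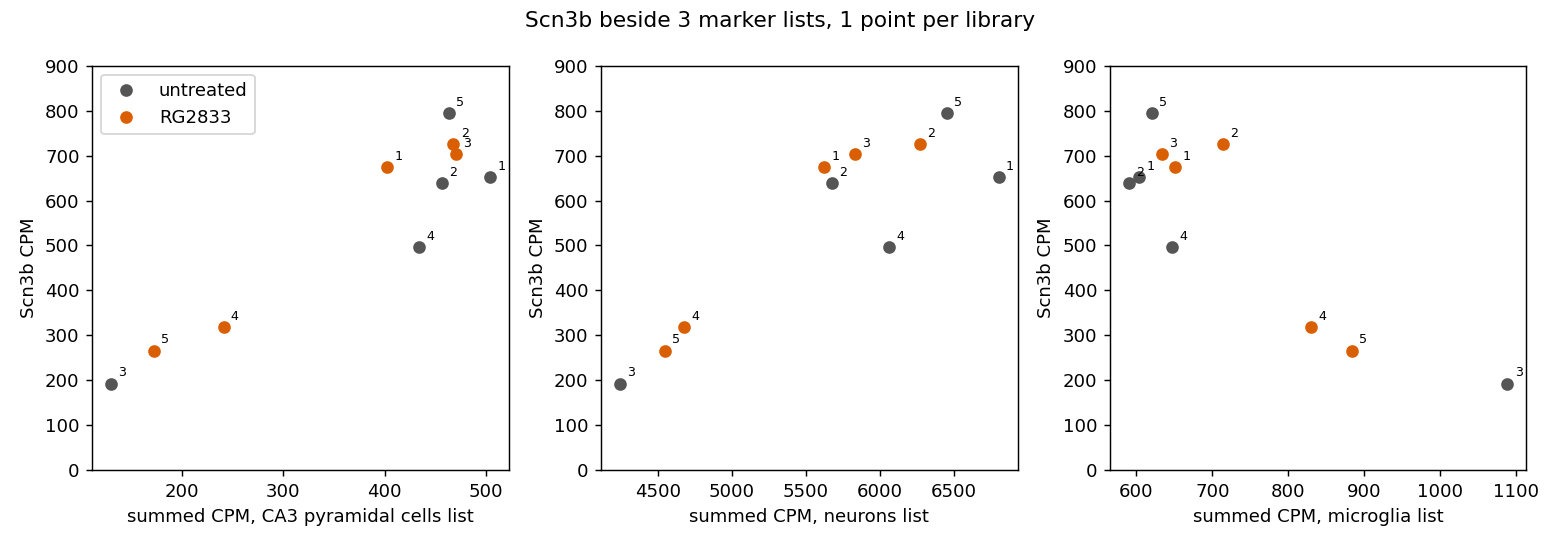
CPM of Scn3b (vertical) against the summed CPM of the CA3, neuronal and microglial marker lists (horizontal) in the 10 libraries, numbered by replicate. Untreated replicate 3 and RG2833 replicates 4 and 5 sit at the low end of Scn3b, at 193 to 319 CPM, with the lowest CA3 and neuronal sums and the highest microglial sums.

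Scn2b and Scn4b were likewise lowest in untreated replicate 3, while RG2833 replicates 4 and 5 were not set apart as clearly. Scn2b, which is linked to the pore by a disulphide bond, was at 83.5, 64.7, 38.9, 65.3 and 73.3 CPM without the drug and 74.8, 76.0, 82.0, 65.8 and 58.0 CPM with it (log2 fold change 0.13, SE 0.18). Scn4b, the subunit tied to resurgent current, was at 34.0, 28.6, 15.2, 38.8 and 41.4 CPM without the drug and 30.8, 34.4, 36.7, 27.4 and 28.9 CPM with it (log2 fold change 0.003, SE 0.22). In all 3 sodium β genes described untreated replicate 3 had the lowest value of the 10 libraries.

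Of the calcium channel pores, those of the presynaptic terminal were close in both groups. Cacna1a, the P/Q-type pore that drives fast transmitter release, was at 297, 299.8, 207, 299 and 320.4 CPM without the drug and 283, 308, 315, 218 and 225 CPM with it (log2 fold change -0.08, SE 0.14). The 3 lowest values were once more those of untreated replicate 3 and RG2833 replicates 4 and 5. Cacna1b, the N-type pore, was at 143, 114, 121, 126 and 126 CPM without the drug and 120.2, 124, 138, 113 and 103 CPM with it, with a coefficient of variation of 9.60% and a log2 fold change of -0.07 (SE 0.09). Cacna1e, the R-type pore of dendrites and spines, was at 125, 107, 83.0, 111 and 121 CPM without the drug and 116, 113, 149, 94.9 and 92.6 CPM with it (log2 fold change 0.05, SE 0.15).

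Of the L-type pores, which couple depolarisation to gene transcription, Cacna1c and Cacna1d had enough counts for the test, and neither passed it; Cacna1s and Cacna1f are taken up with the genes of few counts. Cacna1c was at 93.2, 70.4, 45.01, 70.6 and 67.0 CPM without the drug and 75.6, 77.0, 97.8, 69.1 and 51.0 CPM with it (log2 fold change 0.10, SE 0.20). Cacna1d was at 48.2 ± 8.28 CPM without the drug and 42.1 ± 8.40 CPM with it (SD, n = 5 each; log2 fold change -0.20, SE 0.15). The highest value of Cacna1c was in RG2833 replicate 3 and the lowest in untreated replicate 3.

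Of the 3 T-type pores, Cacna1i was higher in RG2833 rats at an unadjusted p, and the other 2 had log2 fold changes near 0. Cacna1i, the Cav3.3 pore whose slow inactivation supports long bursts, was at 112, 68.8, 89.8, 87.6 and 91.7 CPM without the drug and at 97.2, 117, 133, 145 and 142 CPM with it. All 5 RG2833 values lay above the untreated median and 4 above every untreated library; RG2833 replicate 1 lay below untreated replicate 1. Its expected counts were all fractions, with the doubt given above. The log2 fold change was 0.49 (SE 0.14, 95% interval 0.19 to 0.80; edgeR unadjusted p = 0.00468, adjusted p = 0.841). Under DESeq2 the adjusted p was 0.322, and the alternatives as a set spanned adjusted values of 0.292 to 1.00.

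Of the 19 alternatives, 18 kept an unadjusted p under 0.05 for Cacna1i. In the remaining alternative, without untreated replicate 3 and RG2833 replicates 4 and 5, the log2 fold change was 0.36 and the unadjusted p = 0.0710. Those 2 RG2833 libraries had the highest Cacna1i values. Their astrocyte sums over 8 markers, 11378 and 11538 CPM, were the highest of the 10 libraries (6779 to 10529 CPM in the others). Untreated replicate 3, with the sum of 10529 CPM, had Cacna1i at 89.8 CPM, the untreated median. By group, astrocyte sums ran from 6779 to 10529 CPM (median 8216) in untreated and from 7826 to 11538 CPM (median 10027) in RG2833 rats. The part of cell makeup in the Cacna1i difference was not tested.

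Cacna1g, the Cav3.1 pore of thalamic relay cells, was at 56.5, 39.9, 55.5, 52.8 and 48.5 CPM without the drug and 44.9, 46.5, 52.4, 61.3 and 59.8 CPM with it (log2 fold change 0.07, SE 0.12). Cacna1h, the Cav3.2 pore, was at 114 ± 33.1 and 109 ± 30.4 CPM (SD, n = 5 each; log2 fold change -0.07, SE 0.24). Whether the 3 T-type genes differ from each other in their response was not tested.

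The tested α2δ subunits, a family that includes the target of gabapentin and pregabalin, had log2 fold changes between -0.11 and -0.00005, and none passed. Cacna2d1 was at 116, 106, 103, 112 and 117 CPM without the drug and 107, 101, 117, 90.5 and 96.5 CPM with it, a log2 fold change of -0.11 (SE 0.08; 95% interval -0.28 to 0.06). It was one of 5 members with a coefficient of variation under 10%, beside Scn2a, Cacna1b, Cacnb1 and Cacng2. Cacna2d2, which in the hippocampus is found in interneurons, was at 14.0, 9.17, 17.0, 21.1 and 12.8 CPM without the drug and 16.3, 11.4, 10.6, 14.9 and 16.1 CPM with it (log2 fold change -0.09, SE 0.21). Cacna2d3 was at 143 ± 41.4 CPM without the drug and 143 ± 26.6 CPM with it (SD, n = 5 each), with 75.0 CPM in untreated replicate 3.

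Of the 4 cytoplasmic β subunits, Cacnb2 was lowest and Cacnb3 highest in the 3 libraries low in CA3 markers; Cacnb1 and Cacnb4 did not set those libraries apart. Cacnb2 was at 33.0 CPM in untreated replicate 3 and at 47.3 and 40.7 CPM in RG2833 replicates 4 and 5, against 66.6 to 88.8 CPM in the other 7 libraries. Cacnb3, the β subunit most often found with N-type pores, was at 404, 322 and 323 CPM there, against 236 to 283 CPM in the others. The log2 fold changes between the groups were -0.13 (SE 0.27) for Cacnb2 and 0.05 (SE 0.16) for Cacnb3. Cacnb4, mutated in the lethargic mouse, was at 35.1, 30.9, 41.2, 44.9 and 32.8 CPM without the drug and 39.0, 30.0, 39.7, 40.0 and 60.6 CPM with it (log2 fold change 0.18, SE 0.17), with its highest value in RG2833 replicate 5. Cacnb1 had the smallest coefficient of variation of the 30 tested members, 7.56% (log2 fold change -0.05, SE 0.07).

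**Figure D5:**
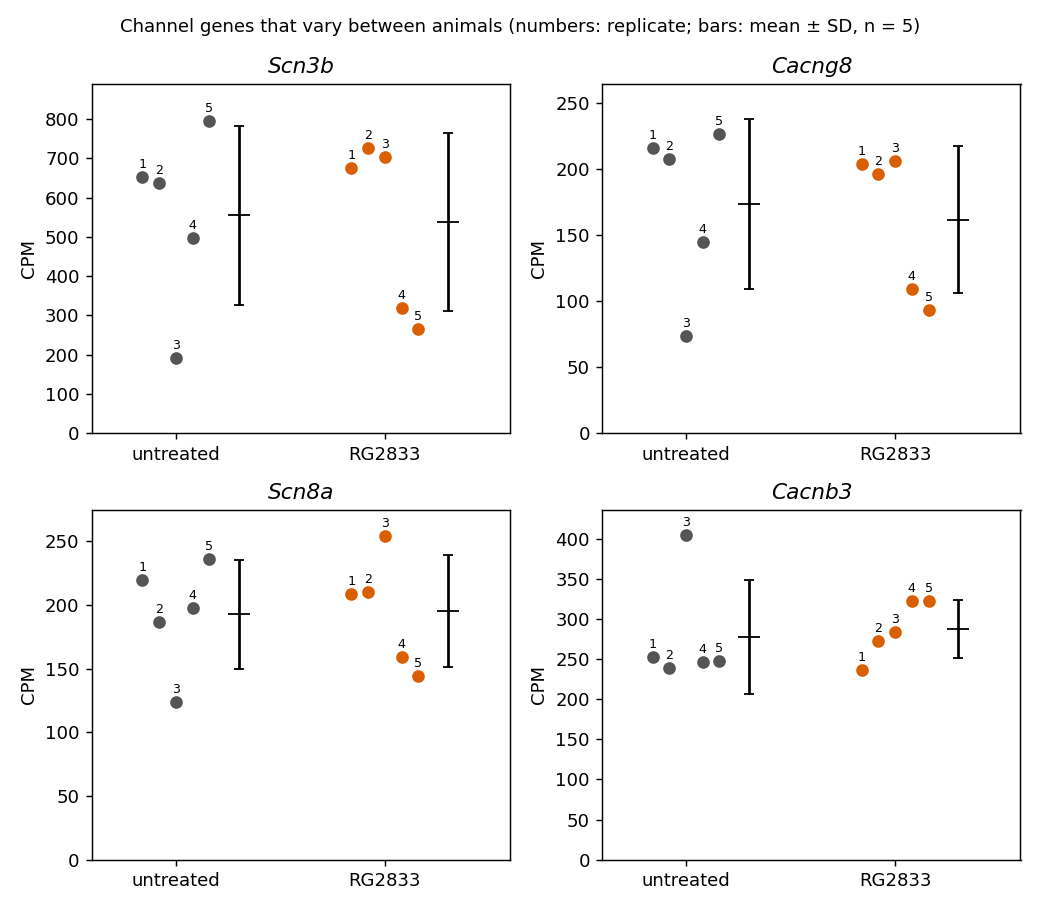
CPM per library (points, numbered by replicate) of Scn3b, Cacng8, Scn8a and Cacnb3, with the mean ± SD of each group (n = 5). Untreated replicate 3 and RG2833 replicates 4 and 5 are the lowest 3 libraries for Scn3b, Cacng8 and Scn8a and the highest 3 for Cacnb3.

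Among the γ genes, the hippocampal TARP Cacng8 spanned 3.09-fold over the libraries. Cacng8, the main AMPA receptor TARP of the hippocampus, was at 216, 207, 73.2, 145 and 226 CPM without the drug and 203, 196, 206, 109 and 93.0 CPM with it (log2 fold change -0.10, SE 0.32). Cacng3, a TARP of the forebrain, was at 32.5, 31.6, 60.2, 37.9 and 36.1 CPM without the drug and 36.9, 35.0, 36.4, 37.5 and 42.7 CPM with it (log2 fold change -0.07, SE 0.16). Its highest value was in untreated replicate 3, the library in which Cacng8 was lowest. Cacng2, the stargazin gene, was at 42.0 ± 1.54 and 45.3 ± 4.31 CPM (SD, n = 5 each; log2 fold change 0.11, SE 0.07). Cacng4 and Cacng7 had log2 fold changes of 0.06 (SE 0.18) and 0.18 (SE 0.14).

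Cacng6, a γ subunit known from muscle, was near the floor of detection. It was at 0.692, 0.820, 0.597, 1.10 and 0.869 CPM without the drug and 0.516, 0.284, 0.704, 0.188 and 0.346 CPM with it, from 3 to 18 counts a library. It had at least 10 counts in 5 untreated libraries and in 1 RG2833 library, so it entered the test through the group where it was higher. The log2 fold change was -0.99 (SE 0.34; edgeR unadjusted p = 0.0142, adjusted p = 0.841). A list of 5 skeletal muscle markers summed to between 15.1 and 25.2 CPM in the 10 libraries.

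The promoters of 3 auxiliary genes whose levels went different ways in untreated replicate 3 are shown: Cacng3 and Cacnb3, highest there, and Cacng8, lowest there. Each is the RefSeq sequence of build GRCr8 from 250 bases before to 50 after the annotated start, on the gene's own strand. Capitals mark TTCAGCACC, the left part of the RE1 element bound by the repressor REST, in Cacng3 (chr1:186632312-186632611, plus strand). They mark GGGCGG or its reverse complement, the GC box, in Cacnb3 (chr7:131666301-131666600, plus strand). The Cacng8 window (chr1:74690954-74691253, minus strand) has no capitals, since it holds neither.
Cacng3: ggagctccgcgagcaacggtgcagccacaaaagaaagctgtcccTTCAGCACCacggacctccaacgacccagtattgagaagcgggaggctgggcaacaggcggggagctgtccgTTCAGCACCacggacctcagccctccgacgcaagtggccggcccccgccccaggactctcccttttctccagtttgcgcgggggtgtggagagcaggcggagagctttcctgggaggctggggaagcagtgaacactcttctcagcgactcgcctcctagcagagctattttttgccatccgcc
Cacnb3: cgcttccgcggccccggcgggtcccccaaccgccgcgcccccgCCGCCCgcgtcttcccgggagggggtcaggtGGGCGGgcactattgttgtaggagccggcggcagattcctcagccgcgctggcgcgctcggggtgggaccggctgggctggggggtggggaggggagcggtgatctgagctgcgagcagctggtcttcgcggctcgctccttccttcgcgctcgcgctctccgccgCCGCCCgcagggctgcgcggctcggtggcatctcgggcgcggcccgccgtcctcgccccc
Cacng8: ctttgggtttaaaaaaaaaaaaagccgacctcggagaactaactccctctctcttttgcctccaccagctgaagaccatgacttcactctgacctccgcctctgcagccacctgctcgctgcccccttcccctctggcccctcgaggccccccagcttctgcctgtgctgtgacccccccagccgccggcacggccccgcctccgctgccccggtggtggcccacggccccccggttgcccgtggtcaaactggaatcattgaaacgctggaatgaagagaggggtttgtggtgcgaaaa
The Cacng3 window holds that stretch at 2 places and also 1 GC box, left in lower case; the Cacnb3 window holds 3 GC boxes and the Cacng8 window 0. Both strands were searched in the windows of the 26 members matched by symbol or older symbol. TTCAGCACC was in 1 of 26 members, Cacng3, and in 0.404% of all 27457 genes with a window; GGGCGG was in 14 of 26 (53.8%) and in 36.0% of all genes. TATAAA was in 2 of 26, Cacna1s and Cacng2 (15.3% of all genes), and TGACGTCA in 0 of 26 (1.999% of all genes). None of these motifs contains another, and a match of letters is not a binding site.

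Pore and auxiliary genes were then set side by side. Of the 14 tested pore genes 9 were lower in RG2833, with a median log2 fold change of -0.07. Of the 16 auxiliary genes 9 were lower and the median was -0.02. An unadjusted p under 0.05 was found for 2 of the 14 pores and 1 of the 16 auxiliary genes, where all genes gave 5.66%; the auxiliary one, Cacng6, entered the test through the untreated group, and the counts are too small to compare. The summed CPM of the pore genes was 1803, 1537, 1301, 1638 and 1739.7 in untreated and 1614, 1661, 1869, 1441 and 1368 in RG2833 rats. That of the auxiliary genes was 2000.5, 1845, 1386, 1690.4 and 2152 in untreated and 1935, 2037, 2054, 1497 and 1455 in RG2833 rats.

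Both sums were lowest in untreated replicate 3, then in RG2833 replicate 5 and then in RG2833 replicate 4. The log2 ratio of pore to auxiliary CPM was -0.171 ± 0.111 in untreated and -0.167 ± 0.106 in RG2833 rats (SD, n = 5 each), so the means differed by 0.0042, less than the spread between animals. It ranged from -0.31 in untreated replicate 5 to -0.05 in untreated replicate 4. Scn3b took 36.9% of the auxiliary CPM in untreated replicate 5 and 13.9% in untreated replicate 3. In the 3 libraries low in CA3 markers that share was at most 21.3%, and in the other 7 at least 29.4%. With the γ genes left out of the auxiliary sum, the mean log2 ratio was 0.137 in untreated and 0.144 in RG2833 rats. With Scn3b left out (an alternative added after the data were seen) it was 0.341 and 0.332. Untreated replicate 3 was at -0.09 with Scn3b counted and at 0.124, the lowest of the 10 libraries, without it.

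In 10 of the 30 tested members (33.3%), 6 pore and 4 auxiliary, untreated replicate 3 and RG2833 replicates 4 and 5 were the 3 lowest of the 10 libraries; this held for 15.9% of all genes tested. These were Scn4a, Scn8a, Cacna1a, Cacna1d, Cacna1e and Cacna1h among the pores and Scn3b, Cacna2d3, Cacnb2 and Cacng8 among the auxiliary genes. In 3 members, all auxiliary (Cacnb3, Cacng4 and Cacng7), they were the 3 highest, against 14.8% of all genes. The 3 libraries were set apart after the values had been seen, and these counts are given without a test. Untreated replicate 3 alone was the lowest library for 12 of the 30 (40%), against 24.2% of all genes.

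For 5 pairs of a pore and an auxiliary subunit known to assemble, levels were compared across the 10 libraries as log2 CPM, with two-sided permutation tests of 100000 resamples. Scn8a and Scn4b went together (Pearson r = 0.85, permutation p = 0.00075, adjusted over the 5 pairs 0.00375; Spearman rho = 0.81, permutation p = 0.00764, adjusted 0.0191). Cacna1e and Cacna2d1 did so too (r = 0.76, permutation p = 0.00964, adjusted 0.0241; rho = 0.82, permutation p = 0.00536, adjusted 0.0191). Without the 2 libraries farthest from the median of the pore gene, r was 0.75 and 0.88. Over the 7 libraries that remain without untreated replicate 3 and RG2833 replicates 4 and 5, r was 0.59 and 0.68.

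The other 3 pairs did not pass once adjusted, for r or rho. Scn2a with Scn3b had r = 0.61 (permutation p = 0.0634, adjusted 0.0771; rho = 0.60, p = 0.0742, adjusted 0.0928), 0.70 without the 2 farthest and -0.02 over the 7 libraries. Cacna1a with Cacnb4 had r = -0.58 (permutation p = 0.0771, adjusted 0.0771; rho = -0.61, p = 0.0666, adjusted 0.0928), -0.82 without the 2 farthest and -0.28 over the 7. Cacna1c with Cacnb3 had r = -0.67 (permutation p = 0.0399, adjusted 0.0664; rho = -0.39, p = 0.263, adjusted 0.263) and -0.56 without the 2 farthest, and its sign turned over the 7 libraries, to 0.64. All values of a library share its cell makeup, and libraries of both groups were pooled.

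Genes whose proteins bind, anchor or scale these channels were counted beside them. Of 39 such genes listed, 32 matched and 31 were tested; 0 had an unadjusted p under 0.05 (5.66% of all genes), 18 were higher and 13 lower in RG2833, and the median log2 fold change was 0.03. The highest was Stac2 (0.59, SE 0.35), an adaptor of L-type channels, and the lowest Rem2 (-0.43, SE 0.56), an activity-induced GTPase that restrains calcium channels. Potassium channel genes, as the nearest other family, gave 5 of 85 at an unadjusted p under 0.05 (5.88%, near the 5.66% of all genes), 47 higher and 38 lower in RG2833, and a median log2 fold change of 0.04.

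The 7 members below the filter were Cacna1f, Cacna1s, Cacna2d4, Cacng1, Scn7a, Scn10a and Scn11a, with 5 to 108 counts each over the 10 libraries. Cacna1s, the skeletal muscle L-type pore, had 11, 18, 12, 16 and 11 counts in untreated and 6, 5, 7, 6 and 6 counts in RG2833 rats, and is singled out because its groups did not overlap. Without a filter its log2 fold change was -0.998 (SE 0.26; edgeR unadjusted p = 0.00293, adjusted p = 0.869), where 0.888% of 14750 genes had groups that did not overlap and 5.29% had an unadjusted p under 0.05. Cacna2d4, an α2δ subunit of the retina, was the other of these 7 with an unadjusted p under 0.05 in that fit (log2 fold change -1.63, SE 0.66, unadjusted p = 0.0304), from 0 to 8 counts a library.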

How the data were processed

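Per the labels' protocols, stranded mRNA libraries were sequenced. Bowtie2 2.1.0, RSEM 1.2.15, bcl2fastq 2.17, edgeR and the build rn6 are named in the submitters' processing notes, without roles. The authors deposited RSEM expected counts per gene, estimates of which 11.6% lay over 0.001 from a whole number; their TMM-scaled table was not used. Rounded to whole numbers, they went into edgeR 4.0.16 (R 4.3.3), whose filterByExpr (minimum count 10, minimum total 15) kept 12161 of 17168 genes (70.8%), TMM scaled the libraries, and the groups were compared by the robust quasi-likelihood F test, with Benjamini-Hochberg adjustment over all genes tested and a threshold of 0.05. Standard errors come from the F statistic; log2 CPM used a prior count of 2. limma 3.58.1 and DESeq2 1.42.0 served alternatives. The fit was tested on simulated data. Over all 45 pairs of libraries the chi-square per gene was at least 7.43, so none was counted as a repeat of another; p-values measure the spread between these rats.

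Of the 3 matching genes left out, 1 γ gene is excluded by the rule for the members; the other 2, with 1 of the partner pairs, are not reported here. None of the 3 enters a count over the members. The members, lists and alternatives were chosen with earlier results of these data known. Every member is accounted for; values in every library are given for members with an unadjusted p under 0.05, for the 3 with the largest fold change and for 17 further members named in the design, and associated genes are named at an unadjusted p under 0.05 or as the extremes. Marker lists were neurons, interneurons, dentate granule, CA1 and CA3 cells, astrocytes, oligodendrocytes and their precursors, microglia, endothelium, smooth and skeletal muscle, choroid plexus, thalamus and striatum. Symbols follow the table; the RefSeq table (GRCr8) gave names and promoters only. No transcript or coding lengths were used, so levels are not given per length.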

Additional observations from a re-analysis of the deposited data

Results flagged for a closer look

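For the 30 tested channel genes, the highest and lowest log2 CPM in a group are listed below where the distance to their neighbour was over 0.71 of that group's span (Dixon's criterion). Among 60 such sets, 5 did so, where chance gives about 3.0, and 4 of the 5 were in untreated replicate 3.

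In untreated replicate 3, Cacnb3 was high, at 404 CPM where its group mates had 239 to 252 CPM (gap 0.896). Cacna1a was low there, at 207 CPM against 297 to 320.4 CPM (gap 0.830). Cacna2d3 was low, at 75.0 CPM against 143 to 177 CPM (gap 0.747). Cacng3 was high, at 60.2 CPM against 31.6 to 37.9 CPM (gap 0.718). This was the library with the lowest CA3 and dentate granule marker sums, 130 and 33.5 CPM, and the part of cell makeup was not tested. In RG2833 replicate 3, Scn3a was high, at 47.8 CPM against 34.1 to 37.6 CPM (gap 0.712).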

How the results depend on the processing

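In every alternative run, 0 channel genes had an adjusted p under 0.05; over all genes DESeq2 gave 7 and the others 0. Genes with an unadjusted p under 0.05 numbered 688 as reported, 1266 in limma-voom with sample weights and 375 to 1732 when 1 library was left out, highest without untreated replicate 3 and lowest without RG2833 replicate 4. Channel genes at that level numbered 3 as reported, 5 without a filter (Cacna1s and Cacna2d4 added; 5.29% of all genes), 1 at a minimum count of 50 (Cacna1i; 5.57% of all genes), 2 in limma-voom (Cacna1i and Cacng6; 10.4% of all genes), 1 without the 3 libraries low in CA3 markers (Cacna1s; 5.37% of all genes) and 3 to 6 with 1 library left out. The highest, 6 (4.81% of all genes tested in that fit), came on dropping RG2833 replicate 3, and 5 on dropping untreated replicate 3 (14.2% of all genes) or RG2833 replicate 1 (7.59%). Cacna1s is among the channel genes at that level on dropping untreated replicate 5 or any 1 RG2833 library, where 4 to 6 were found. The fit without the 3 libraries has it too. In all these fits Cacna1s passed the filter only through the untreated group. Without the 2 choroid-rich libraries there were 3, with Cacng2 in and Scn9a out (4.90%).

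Same-numbered libraries of the 2 groups did not deviate together (correlations -0.49 to -0.03), and no library correlated best with its own number. Labels do not say whether the numbers pair animals. The correlations cannot decide it, since differences in cell makeup between libraries enter them too. With the replicate block 401 genes and 2 channel genes (Cacna1i and Scn9a) had an unadjusted p under 0.05.

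Leaving out 1 library, the median log2 fold change ran from -0.12 to -0.02 for pores and from -0.05 to 0.02 for auxiliary genes, against -0.07 and -0.02 as reported; 14 to 22 members were lower in them. The difference in log2 ratio ran from -0.03 to 0.04 in those fits, and was -0.04 without the 3 libraries low in CA3 markers. The alternative per coding length was not run, since no lengths were used.

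Of 568 single-gene values under alternatives 513 kept their direction and 55, of 17 genes, changed sign; 13 genes kept it throughout. The sign of Cacna2d3 changed to 0.0028 with median-of-ratios factors, 0.0023 without a filter, 0.0028 in DESeq2, 0.037 with the replicate block and 0.0080 without the 3 libraries. limma-voom gave 0.037 for Cacng3, -0.126 for Scn4b and -0.045 for Scn8a. Without the 2 choroid-rich libraries Scn4b was at -0.0300 and Scn8a at -0.025. Without the 3 libraries low in CA3 markers the values were 0.0025 for Cacna1b, -0.048 for Cacna1g, 0.027 for Cacna1h, 0.031 for Cacnb1, 0.061 for Cacng3, 0.0196 for Cacng8, 0.117 for Scn3b and -0.075 for Scn4b. Leaving out 1 library gave these log2 fold change ranges: Cacna1c -0.023 to 0.23, Cacna1e -0.071 to 0.12, Cacna1g -0.0098 to 0.12, Cacna1h -0.21 to 0.062, Cacna2d2 -0.23 to 0.067, Cacna2d3 -0.16 to 0.088, Cacnb3 -0.00088 to 0.22, Cacng3 -0.14 to 0.13, Cacng4 -0.0299 to 0.22, Cacng8 -0.30 to 0.046, Scn1a -0.14 to 0.0087, Scn2b -0.0069 to 0.24, Scn3b -0.26 to 0.13, Scn4b -0.17 to 0.12 and Scn8a -0.10 to 0.11. Genes under about 1 CPM, Cacng6 and the 7 untested members, are limited by their few counts.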
